A study of Saccharomyces cerevisiae with 8 samples.

Results

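The yeast cell wall is a network of β-1,3-glucan chains to which β-1,6-glucan, chitin and mannoproteins are attached. Glucan and chitin are made at the plasma membrane by synthases that push the growing chain outwards, and secreted enzymes then cut, elongate and crosslink the chains so that the wall can expand at the bud and be rebuilt at the septum. The 10 genes described here were chosen by name for these roles. FKS1 and GSC2 encode alternative catalytic subunits of β-1,3-glucan synthase, CHS1 and CHS3 encode chitin synthases, GAS1 encodes a glucan chain-elongating transferase, BGL2, SCW4 and SCW10 encode related cell wall glucanases, EXG1 encodes the major exo-β-1,3-glucanase, and CRH1 encodes a transglycosylase that joins chitin to glucan. Their rows were found by gene name among the 6547 features of the deposited table, and all 10 were present and passed the filter on low values.

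Messenger RNA of budding yeast (Saccharomyces cerevisiae) had been sequenced from wild type strain WFA72 (WT) and from strain WFA73 of genotype mec1. MEC1 encodes the checkpoint kinase that is the yeast counterpart of ATR; the labels name neither the allele nor any second mutation in WFA73. Both strains were arrested in G1 with alpha factor, the mating pheromone (G1), released into 200 mM hydroxyurea for 1 h (HU), which slows replication by depleting deoxynucleotides, and then moved to fresh medium for 30 min (R30) or 60 min (R60). Each strain and time had 1 library, so the 8 libraries held no replicates and no spread between cultures could be measured.

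The values are read counts scaled to a common library total (RPM) and averaged over genome windows that touch a gene, which comprise the body of that gene and of its close neighbours and flanks of 1000 bp. A feature's value is therefore diluted by empty flanks and can hold a neighbour's reads. The scale rested on 1596132 (WT HU) to 3935979 reads (mec1 G1) per library, and the 10 genes had on average 67.0 to 4455 reads per window. CRH1 was the only one of the 10 with no neighbour in its windows. For the other 9, a level for each feature was also estimated by assigning the reads to features along the chromosome, called the separated level below; it accounted for the deposited spread between windows to within 1.5-fold in every library for 9 of the 10 genes, and not for GSC2. No 75-base stretch of the 10 genes occurs elsewhere in the R64 reference genome, so FKS1 and GSC2, or SCW4 and SCW10, share no perfectly matching reads of that length. The MEC1 feature held 35.7 to 90.3 RPM in the WT libraries and 76.6 to 124 RPM in the mec1 libraries, and after separation 0.0 to 24.5 RPM in WT and 67.9 to 85.7 RPM in mec1. The level was thus higher in every library labelled mec1, which would go against the labels if mec1 stood for a deletion. The allele is not named, so WT and mec1 mean here the libraries so labelled, and each direction between the strains rests on those labels.

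The upstream regions are shown for 4 of the genes, picked by their values. SCW10, CHS3 and CHS1 were lower in hydroxyurea than in G1 by over 1.5-fold in both strains, and CRH1 had the widest range of all 10. CRH1 was also lower in hydroxyurea in both strains, at -0.31 in WT and -0.95 in mec1 on the log2 scale. GSC2 was slightly lower, at -0.10 and -0.03. Each region is the 300 bases that end 51 bases before the start codon in the RefSeq R64 genome. It is written on the gene's own strand, with matches to motifs in capitals. SCW10 is at chrXIII:880283-880582 on the minus strand, CHS3 at chrII:287976-288275 on the minus strand, CHS1 at chrXIV:276152-276451 on the plus strand and CRH1 at chrVII:878243-878542 on the minus strand.
SCW10: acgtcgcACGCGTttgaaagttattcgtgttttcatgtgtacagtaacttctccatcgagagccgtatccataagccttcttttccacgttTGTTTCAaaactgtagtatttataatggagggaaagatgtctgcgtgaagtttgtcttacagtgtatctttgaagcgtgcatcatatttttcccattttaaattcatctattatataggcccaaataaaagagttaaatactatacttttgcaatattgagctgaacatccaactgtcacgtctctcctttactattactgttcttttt
CHS3: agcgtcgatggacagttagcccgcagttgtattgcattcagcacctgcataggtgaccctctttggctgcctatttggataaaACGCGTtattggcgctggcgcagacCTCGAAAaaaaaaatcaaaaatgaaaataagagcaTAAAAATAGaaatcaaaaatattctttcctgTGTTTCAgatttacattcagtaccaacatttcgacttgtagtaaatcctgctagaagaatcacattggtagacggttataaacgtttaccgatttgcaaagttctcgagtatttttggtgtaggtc
CHS1: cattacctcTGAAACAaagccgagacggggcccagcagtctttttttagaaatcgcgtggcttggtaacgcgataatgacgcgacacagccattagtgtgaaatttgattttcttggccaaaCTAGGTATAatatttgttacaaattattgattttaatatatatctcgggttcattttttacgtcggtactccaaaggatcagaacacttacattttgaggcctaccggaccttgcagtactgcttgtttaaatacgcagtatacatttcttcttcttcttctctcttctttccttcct
CRH1: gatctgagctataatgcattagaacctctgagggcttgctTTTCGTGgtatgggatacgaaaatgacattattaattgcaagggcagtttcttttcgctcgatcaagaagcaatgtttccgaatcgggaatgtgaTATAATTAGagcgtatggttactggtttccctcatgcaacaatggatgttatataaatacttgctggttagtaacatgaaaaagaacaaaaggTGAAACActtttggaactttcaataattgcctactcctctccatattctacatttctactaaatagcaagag

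The letters of 6 motifs were searched on both strands in the same window of 5809 genes. TGAAACA, the core element bound by Ste12, the transcription factor of the mating response, was found upstream of 6 of the 10 genes (CHS1, CHS3, BGL2, SCW4, SCW10 and CRH1) and in 7.52% of all windows. In the sequences above it appears as TGAAACA in CHS1 and CRH1 and as its reverse complement TGTTTCA in SCW10 and CHS3. ACGCGT, the MCB element of the G1/S factor MBF, was found upstream of SCW10 and CHS3 and in 3.77% of all windows; it reads the same on both strands. CNCGAAA, the SCB element of the G1/S factor SBF, was found upstream of CHS3, GAS1 and CRH1 and in 15.7% of all windows. TANNNNTAG, a reduced form of the site of Rlm1, the transcription factor of the cell wall integrity pathway, was found upstream of 7 of the 10 genes and in 47.5% of all windows, and its matches on the 2 strands overlapped each other in GSC2 and BGL2. GNGGCTG (Crz1) and AGGGG (the stress response element) were found upstream of none of the 10, and in 5.8% and 23.0% of all windows. None of the matches in the 4 sequences shown overlaps a match to another of the patterns. These matches describe the letters in the windows and do not show binding.

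**Figure D1:**
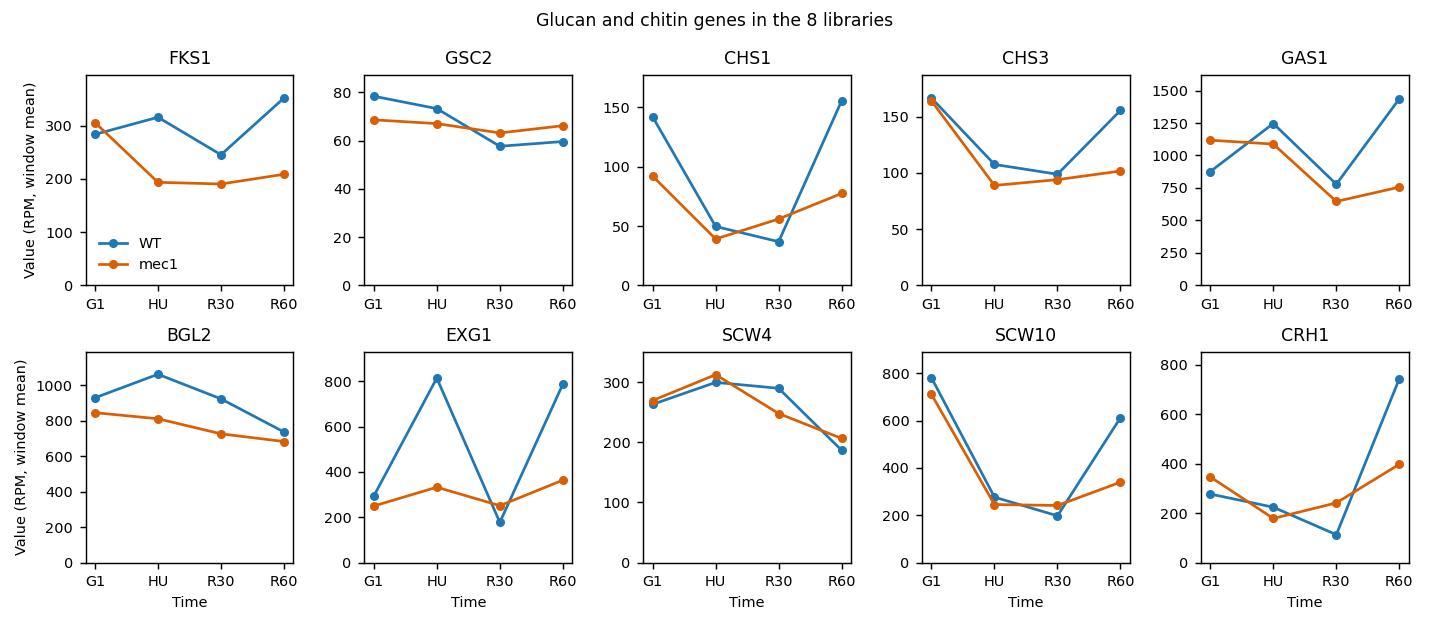
Deposited values of the 10 genes at the 4 times. The x axis is the sampling time, the y axis is the value in RPM averaged over the windows of the feature and starts at 0 on a scale of its own in each panel, each point is 1 library, and lines join the libraries of a strain (blue, WT; orange, mec1). SCW10, CHS1 and CHS3 lay lower in HU than in G1 by over 1.5-fold in both strains. At R60 the WT library lay above the mec1 library for 8 of the 10 genes and for 39.0% of all features.

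Among the glucan synthase genes, FKS1 encodes the main catalytic subunit of growing cells. FKS1 (chromosome XII, 809997 to 815627 in the table's coordinates) had 284 RPM in WT G1, 316 in WT HU, 246 in WT R30 and 352 in WT R60, against 306 in mec1 G1, 194 in mec1 HU, 191 in mec1 R30 and 209 in mec1 R60. The strains were close in G1, and from HU on every mec1 library was below every WT library. The fitted difference between the strains over the 4 times was -0.43 (SE 0.151) on the log2(RPM + 1) scale and was not called (limma, unadjusted p = 0.0263, Benjamini-Hochberg adjusted p = 0.143). Without the WT G1 or the mec1 G1 library it was -0.61 and was called (limma, adjusted p = 0.0324 in both cases), in fits that called 672 and 666 of all features against 18 with all libraries. Its windows also touch YLR342W-A and GAS2, whose own features held at most 110.2 and 55.4 RPM. No fitted change of FKS1 between times had an unadjusted p under 0.05.

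GSC2 encodes the alternative subunit, known for its expression in cell wall stress, sporulation and poor carbon sources. GSC2 (chromosome VII, 548268 to 553955) ranged only from 57.7 RPM (WT R30) to 78.4 RPM (WT G1), with 73.3 in WT HU and 59.6 in WT R60. The mec1 libraries held 68.6, 67.1, 63.2 and 66.2 RPM in the order of the times. Of the 10 genes it had the smallest ratio of the highest to the lowest library, 1.36. The reads in its windows could not be assigned between GSC2 and its neighbours YGR031W, YGR031C-A and TIM21, so this even level cannot be ascribed to GSC2. The mean and the spread over windows still set a bound that needs no model. No single window of GSC2 exceeded 187 RPM in any library, whereas the largest window of FKS1 held at least 302 RPM in every library. The 2 genes are of similar length (5688 and 5631 bp), so the FKS1 locus gave more reads than the GSC2 locus in all 8 libraries.

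Chs3 makes most of the chitin of the bud neck ring and lateral wall, and Chs1 is known for repairing the septum at cell separation and for its induction by mating pheromone. CHS1 (chromosome XIV, 276501 to 279896) had 142 RPM in WT G1, 49.6 in WT HU, 36.8 in WT R30 and 156 in WT R60, and the mec1 libraries 92.1, 39.1, 55.9 and 77.5 in the same order. The G1 and R60 libraries were higher than the HU and R30 libraries in both strains. In WT the level returned at R60 to that of G1, at 0.13 on the log2 scale (95% counting interval -0.07 to 0.33). The fitted change from G1 to HU was -1.36 (SE 0.338) and narrowly missed the threshold (limma, adjusted p = 0.0542; 0.027 to 0.204 over the alternatives). The change from R30 to R60 was 1.26 (SE 0.338, limma, unadjusted p = 0.00782, adjusted p = 1). CHS1 holds neighbour reads from YNL193W and YNL191W that moved less, and after separation its level ran from 88.9 RPM (mec1 HU) to 533 RPM (WT R60).

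CHS3 (chromosome II, 284428 to 287925) started at 167 RPM in WT G1 and went to 108 in HU, 98.9 at R30 and 156 at R60; the mec1 libraries held 164, then 88.9, 94.1 and 102 RPM. It fell from G1 to HU by 0.75 on the log2 scale (SE 0.166, limma, adjusted p = 0.041), at -0.63 in WT and -0.88 in mec1. The call did not hold once reads of the neighbour POA1 were separated from it (-0.85, limma, adjusted p = 0.08), nor without any 1 of 6 libraries, at adjusted p = 0.0768 to 0.208 (limma). At R60 the WT library had come back near its G1 value (-0.10, counting interval -0.29 to 0.09), and the mec1 library was at -0.68 (counting interval -0.87 to -0.50).

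SCW10 gave the clearest change of the 10. Scw10 and Scw4 are glucanases of the same family, first found among soluble cell wall proteins, and cells lacking both are known to have weak walls and mating defects. SCW10 (chromosome XIII, 879062 to 880231) had 781 RPM in WT G1, 277 in WT HU, 198 in WT R30 and 613 in WT R60, and the mec1 libraries 711, 245, 241 and 339.9 in the same order. Both G1 libraries were above all other libraries. It fell from G1 to HU by 1.51 on the log2 scale (SE 0.244, limma, adjusted p = 0.0183), by nearly the same amount in WT (-1.49) and in mec1 (-1.53). The call held after separation from UBP15, YMR304C-A and FKS3 (-1.57, limma, adjusted p = 0.0498), and did not hold without the WT G1, WT HU, mec1 G1 or mec1 HU library (limma, adjusted p = 0.0575 to 0.12). The features of UBP15 and YMR304C-A, which overlap or adjoin SCW10 and share windows with it, changed alike (-1.28 and -1.53), and their own separated levels were at most 34.6 and 60.4 RPM against 490.2 to 2187 RPM for SCW10.

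SCW4 (chromosome VII, 1048804 to 1049964) followed another order: 263, 299, 289.6 and 187 RPM in the successive WT libraries and 269, 312, 248 and 206 in those of mec1. Its lowest library was R60 in both strains. The fitted change from HU to R60 was -0.64 (SE 0.13, limma, unadjusted p = 0.00183, adjusted p = 0.0722), the lowest p of the 10 genes in that contrast, and was not called. The windows of SCW4 also touch CWC22 and PXR1, whose separated levels were at most 39.3 and 341 RPM. That of SCW4 ran from 513 to 889 RPM, and after separation its change from HU to R60 was -0.67. Relative to SCW4, whose gene length is similar, SCW10 stood at 2.99 in WT G1, 0.894 in WT HU, 0.594 in WT R30 and 3.27 in WT R60, as the ratio of separated RPM per kb. In mec1 the ratios were 2.58, 0.709, 0.903 and 1.51. SCW10 was thus the higher of the pair in G1 and at R60 and the lower in HU and at R30, in both strains. This ratio was formed after the values had been seen and carries no test.

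The other glucan-remodelling genes were among the most abundant. GAS1 (chromosome XIII, 887002 to 888681) had 876, 1246, 779 and 1436 RPM in WT from G1 to R60, where mec1 had 1118, 1088, 646 and 756. R30 was its lowest library in both strains, and from HU to R30 the fitted change was -0.71 (SE 0.267, limma, unadjusted p = 0.0327, adjusted p = 0.251). Its 9 windows are shared with 4 neighbouring features, and the largest separated level among them, that of PSE1, was 454 RPM against 1821 to 4088 RPM for GAS1. BGL2 (chromosome VII, 1057789 to 1058730), whose product is one of the most abundant wall proteins, had 928, 1061, 922 and 736 RPM in the WT series and 844, 810.2, 725 and 682 in that of mec1. It was lower in mec1 at each time, at -0.39 to -0.11 on the log2 scale, with a fitted difference of -0.25 (SE 0.0889, limma, unadjusted p = 0.0289, adjusted p = 0.148). With the distributions of the libraries made equal it was -0.08 (limma, adjusted p = 0.576). With the libraries centred on their medians it was -0.36 (limma, adjusted p = 0.102).

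EXG1 (chromosome XII, 728957 to 730303) had the largest difference between the strains of the 10 genes in HU. It stood at 294 RPM in WT G1, 815 in WT HU, 177 in WT R30 and 787 in WT R60. The mec1 libraries held 249.6, 333, 251 and 364 RPM. The WT libraries thus alternated between low and high, and the mec1 libraries did so within a narrower range. The windows of EXG1 also touch ECM38, YLR299C-A and YLR301W, whose separated levels were at most 145, 33.8 and 361 RPM. That of EXG1 ran from 525 to 2935 RPM. The YLR301W feature had a fitted change of 0.85 from G1 to HU (limma, adjusted p = 0.0596). From G1 to HU the EXG1 difference was 1.47 in WT (counting interval 1.34 to 1.60) and 0.41 in mec1 (0.28 to 0.54). After separation these were 1.55 and 0.40. The fitted change of EXG1 over both strains was 0.94 (SE 0.403, limma, adjusted p = 0.166). From HU to R30 the WT difference was -2.19, the mec1 difference -0.40 and the fitted change -1.30 (SE 0.403, limma, unadjusted p = 0.0151, adjusted p = 0.179). Whether the strains differed in these responses could not be tested with 1 library each.

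CRH1 (chromosome VII, 876674 to 878197), free of neighbours in its 3 windows, had 277, 224, 113 and 743 RPM in WT from G1 to R60, and 346, 178, 241 and 397 in mec1. The highest and the lowest library, WT R60 and WT R30, differed 6.6-fold. From R30 to R60 the difference was 2.71 in WT (counting interval 2.51 to 2.92) and 0.72 in mec1 (0.58 to 0.86), and the fitted change was 1.71 (SE 0.416, limma, unadjusted p = 0.00468, adjusted p = 1). R60 was its highest time in both strains.

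**Figure D2:**
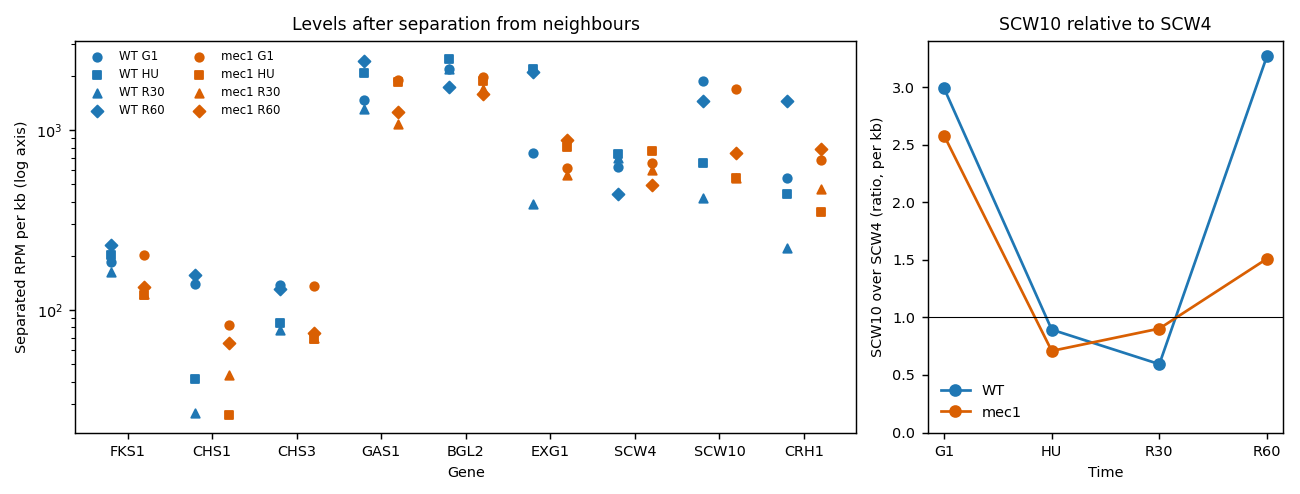
Left, separated level per kb of gene length (y axis, log scale, RPM per kb) of the 9 genes that could be separated from their neighbours, 1 symbol per library (blue, WT; orange, mec1; circle, G1; square, HU; triangle, R30; diamond, R60). Right, the ratio of SCW10 to SCW4 per kb at each time (y axis from 0, line at 1). BGL2 and GAS1 have the highest medians, and CHS1 and CHS3 lie at the bottom. The SCW10 to SCW4 ratio is above 1 in G1 and at R60 and below 1 in HU and at R30.

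Compared as levels per kb after separation, the genes for secreted or surface remodelling enzymes were above those for the synthases in every library. BGL2 was the highest of the 9 in 7 of the 8 libraries (median 1930, range 1594 to 2503 RPM per kb), and GAS1 was highest in WT R60 (median 1660, range 1084 to 2434). EXG1 (median 776), SCW10 (703), SCW4 (639.7) and CRH1 (509) followed by median and changed places between libraries. SCW10 was above GAS1 in WT G1, and EXG1 was above GAS1 in WT HU and above BGL2 in WT R60. FKS1 (median 174, range 121 to 231 RPM per kb) was below all of these and above both chitin synthase genes in every library. CHS3 (median 80.7) and CHS1 (median 54.5) were the lowest, with CHS1 below CHS3 in 6 of the 8 libraries and above it in WT G1 and WT R60.

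**Figure D3:**
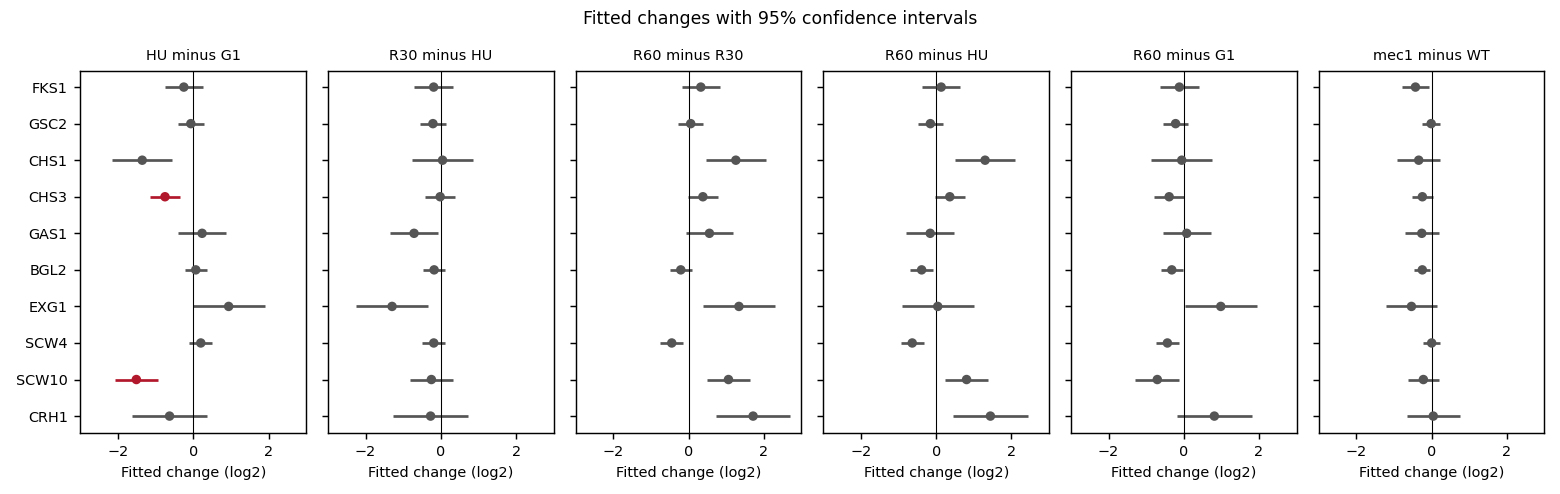
Fitted change of each gene (x axis, log2 of RPM + 1) in the 6 contrasts, with 95% confidence intervals from the limma model over all 8 libraries. Red marks an adjusted p under 0.05. SCW10 and CHS3 in HU minus G1 are the only red points.

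Of the 6 fitted contrasts, only that between HU and G1 had called changes among the 10 genes. There, 2 genes (SCW10 and CHS3) fell and 0 rose; over all 6504 features tested, 294 (4.52%) were called lower and 297 (4.57%) higher, together 9.09%. At an unadjusted p under 0.05, 3 of the 10 were lower and 0 higher, against 2027 (31.2%) of all features in either direction. The median change of the 10 was -0.16, and that of all features -0.02. These p-values weigh a change common to both strains against the unevenness between the strains over time, since no spread between cultures was measured.

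During recovery no change among the 10 was called by limma. From HU to R30, 56 of all features (0.861%) were called. The fitted change was negative for 9 of the 10 genes, and the share of negative changes over all features was not counted. The median of the 10 was -0.20 against 0.04 over all features. Of the 10, 2 (GAS1 and EXG1) had an unadjusted p under 0.05 (limma), as had 16.7% of all features. Leaving out 1 library moved EXG1 (-1.30) to between -0.61 (without WT R30) and -1.99 (without mec1 R30). From R30 to R60 none of the 6504 features was called (0.0%; smallest adjusted p 0.155), although 261 (4.01%) had an unadjusted p under 0.05. Among the 10, the same count was 5: CHS1 (1.26), EXG1 (1.34), SCW10 (1.06) and CRH1 (1.71) were higher and SCW4 (-0.45) lower at R60. These sizes depended on single libraries: without WT R30, CHS1 was 0.64, EXG1 0.65, CRH1 1.02 and SCW4 -0.30, without WT R60, SCW10 was 0.64, and without mec1 R30, EXG1 was 2.03. From HU to R60, with 62 features called (0.953%), 5 of the 10 had an unadjusted p under 0.05, as had 16.8% of all features, namely CHS1 (1.30), CRH1 (1.44) and SCW10 (0.81) upwards and SCW4 (-0.64) and BGL2 (-0.39) downwards. Fitted only to the 4 libraries of those times, CHS1 and CRH1 were called (limma, adjusted p = 0.00541 and 0.00324), in a fit that called 194 of all features. Without WT R60, CHS1 was 0.86, CRH1 0.81 and SCW10 0.39, and without mec1 R60, SCW10 was 1.23. From G1 to R60, with 103 features called (1.58%), EXG1 (0.98) was higher and SCW10 (-0.71), SCW4 (-0.44) and BGL2 (-0.32) were lower at an unadjusted p under 0.05, a level reached by 19.7% of all features. SCW10 was -0.29 without mec1 R60 and -1.13 without WT R60, and EXG1 was 0.60 without WT R60.

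Between the strains over all times, 0 of the 10 and 18 of all features (0.277%) were called by limma. FKS1 and BGL2 were lower in the libraries labelled mec1 at an unadjusted p under 0.05, as were 7.1% of all features. The median difference of the 10 was -0.24 against 0.08 over all features. Of the 10, 8 were negative, and the share of negative differences over all features was not counted. Centring the libraries on their medians or making their distributions equal moved the median over all features by up to 0.116. The differences near 0, such as those of GSC2 (-0.01), SCW4 (0.0035) and CRH1 (0.05), have no direction beyond that shift. BGL2 came to -0.36 with centring and to -0.08 with equal distributions, and FKS1 to -0.54 and -0.43.

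**Figure D4:**
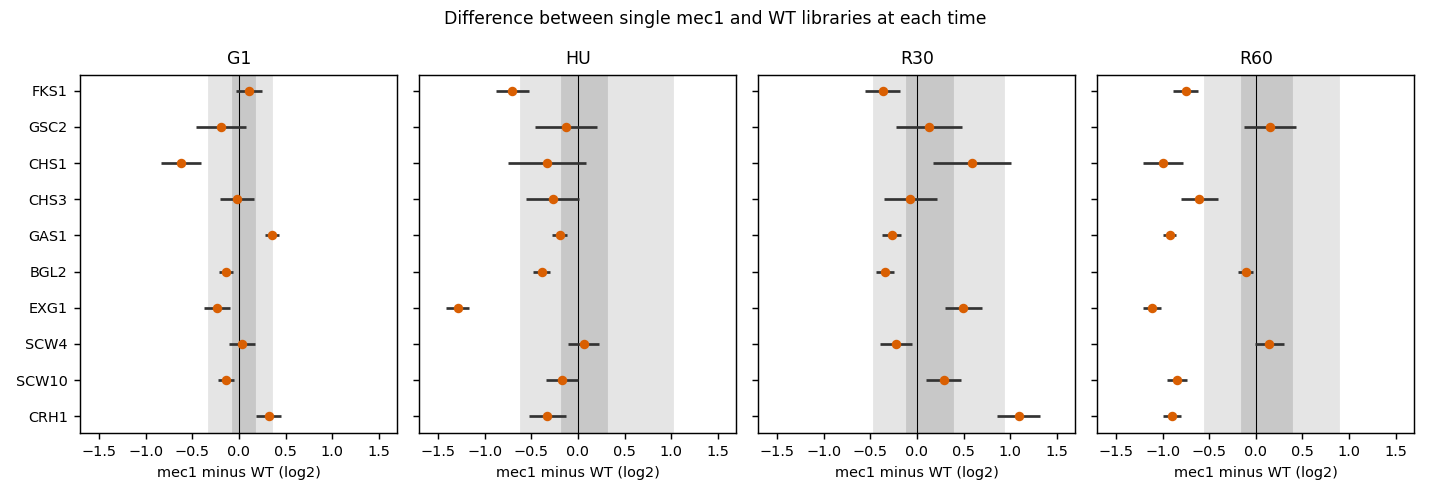
Difference between the single mec1 and WT libraries at each time (x axis, log2 of RPM + 1), with 95% intervals for counting error. Dark shading spans the middle quartiles and light shading the 5th to the 95th percentile of all 6504 features tested. At R60, 7 of the 10 genes lie to the left of the light shading.

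The strains were also set side by side at each time, and R60 had the most of the 10 genes past 1.5-fold. In G1, 1 of the 10 genes (CHS1, -0.62) was lower in mec1 by over 1.5-fold, as were 1.28% of all features, and 0 were higher (1.49% of all). In HU, FKS1 (-0.70) and EXG1 (-1.29) were lower by that margin, as were 5.43% of all features, 0 were higher (12.1% of all), and 9 of the 10 differences were negative against 42.7% of all. At R30, CHS1 (0.59) and CRH1 (1.09) were higher in mec1 by that margin, as were 13.9% of all features, and 0 were lower (2.2% of all).

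At R60, 7 of the 10 genes were lower in the library labelled mec1 than in that labelled WT by over 1.5-fold, a margin passed by 4.24% of all features. The differences were -1.11 for EXG1 (counting interval -1.21 to -1.01), -0.997 for CHS1 (-1.21 to -0.78), -0.92 for GAS1 (-0.99 to -0.85), -0.90 for CRH1 (-0.998 to -0.805), -0.85 for SCW10 (-0.95 to -0.74), -0.75 for FKS1 (-0.89 to -0.62) and -0.61 for CHS3 (-0.81 to -0.41). The other 3 were near 0, at -0.11 for BGL2, 0.14 for SCW4 and 0.15 for GSC2. The median of the 10 was -0.80, and that of all features 0.10. After separation from neighbours, the 7 differences ran from -0.78 (FKS1) to -1.27 (EXG1). The intervals cover counting error only, and with 1 library per strain a difference between these cultures cannot be told apart from a difference between the strains.

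The steps between times were also compared within each strain. From G1 to HU in WT, EXG1 was higher by over 1.5-fold (11.7% of all features) and CHS1, CHS3 and SCW10 were lower (9.96%). The same step in mec1 had 0 higher (13.1%) and 5 lower (8.19%), namely FKS1 (-0.66), CRH1 (-0.95) and again CHS1, CHS3 and SCW10. From HU to R30 in WT, all 10 differences were negative, as were 47.2% of all features; GAS1, EXG1 and CRH1 passed 1.5-fold (9.89%), and 0 were higher by that margin (6.5%). In mec1, GAS1 alone was lower by that margin (4.38%) and 0 were higher (6.09%).

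From R30 to R60 in WT, 6 genes (CHS1, CHS3, GAS1, EXG1, SCW10 and CRH1) were higher by over 1.5-fold, from 0.65 (CHS3) to 2.71 (CRH1), against 6.04% of all features; SCW4 was lower (-0.63), as were 2.66%. In mec1 only CRH1 (0.72) was higher by that margin, against 1.06% of all features, and 0 were lower (0.784%). For FKS1 the WT difference was 0.52 and the mec1 difference 0.13, and its separation between the strains was already present in HU. Relative to G1, WT R60 was higher by over 1.5-fold in GAS1 (0.71), EXG1 (1.42) and CRH1 (1.42), against 7.27% of all features, and in 0 genes lower (4.17%). The mec1 R60 library was lower in CHS3 (-0.68) and SCW10 (-1.06), against 6.0% of all features, and in 0 higher (14.4%). These comparisons share libraries and are given side by side.

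Other genes of the wall were taken from a list of 55 by role, of which 54 were tested; WSC1 was not analysed here. From G1 to HU, 2 of the 54 rose and 3 fell, together 9.26% against 9.09% of all features, with a median of -0.04 against -0.02; the count is at the background share. GAS3, a paralogue of GAS1, had 73.7 RPM in WT G1 and 163 in WT HU, and 64.2 and 113 in mec1, a rise of 0.97 (SE 0.17, limma, adjusted p = 0.0223). EXG2, which encodes a membrane-anchored exoglucanase, rose by 0.60 (limma, adjusted p = 0.0425). RHO1, encoding the GTPase that activates glucan synthase, had 411 and 291 RPM in WT G1 and HU and 404 and 264 in mec1, and fell by 0.55 (limma, adjusted p = 0.0391). SLT2, the MAP kinase gene of the cell wall integrity pathway, fell by 0.98 (limma, adjusted p = 0.0332), and RLM1, the gene of its transcription factor, by 0.88 (limma, adjusted p = 0.0235). From HU to R60, GAS3 fell by 1.21 (limma, adjusted p = 0.0322), the only call there (1.85% of the 54 against 0.953% of all features). In the other 4 contrasts 0 of the 54 were called by limma. At an unadjusted p under 0.05, 3 were higher and 6 lower at R30 than in HU (16.7% of the 54 and 16.7% of all features), and 6 were higher and 0 lower at R60 than at R30 (11.1% and 4.01%). Between G1 and R60, 6 were higher and 4 lower (18.5% and 19.7%), and between WT and mec1, 7 were higher and 4 lower in mec1 (20.4% and 27.0%).

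**Figure D5:**
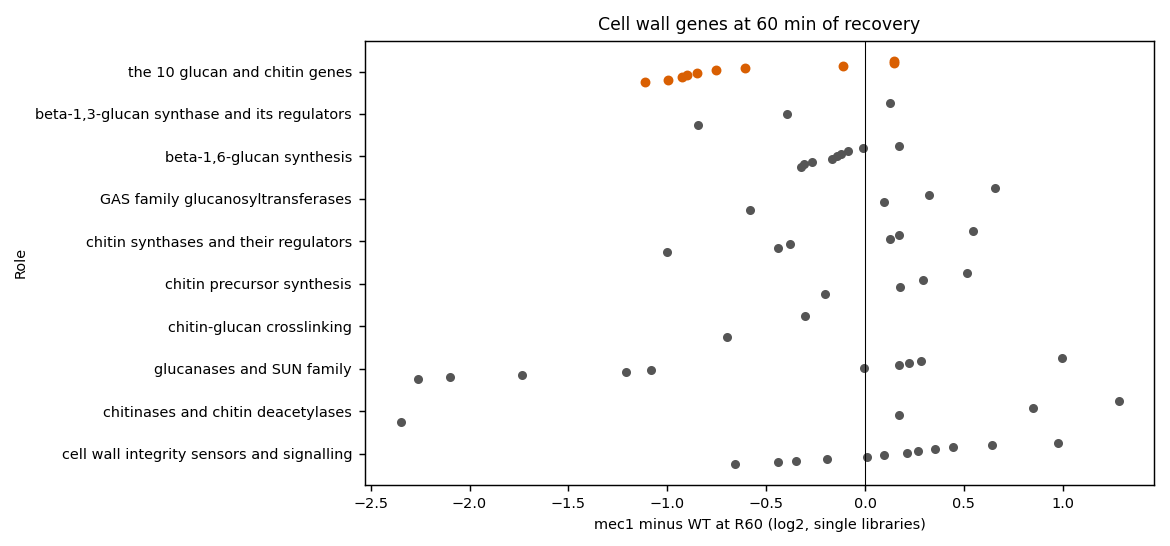
Difference between the single mec1 and WT libraries at R60 (x axis, log2 of RPM + 1) for the 10 genes (orange) and the 54 other wall genes (grey), grouped by role on the y axis; the offset within a row only keeps points apart. The most negative points are genes of glucanases and of a chitinase, between -1.73 and -2.35.

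At R60, 10 of the 54 were lower in mec1 than in WT by over 1.5-fold (4.24% of all features) and 6 were higher (13.3% of all features), with a median of -0.01. The 4 most negative, named here after their values were seen, are known for the separation of daughter from mother cells. The chitinase gene CTS1 had 521 RPM in WT R60 and 101 in mec1 R60 (-2.35), and the glucanase gene SCW11 279.5 and 57.6 (-2.26). The endoglucanase gene DSE4 had 102 and 23.0 RPM (-2.10), and DSE2 had 274 and 81.6 RPM (-1.73). These 4 features were all higher at R60 than at R30 in both strains, and the rise was smaller in mec1. In WT all 4 rose by over 1.5-fold, and in mec1 only DSE4 did. CHS7, required for Chs3 to leave the endoplasmic reticulum, had a difference of -1.0, but its windows adjoin DSE2 and RPL42B, and its own separated level was 0 in 6 of the 8 libraries. FKS3, also lower in mec1 by over 1.5-fold, shares windows with SCW10 and GAS1. It held 285 RPM in WT R60 and 158 in mec1 R60, and 72.6 and 15.8 RPM after separation. The count of lower genes thus includes features that hold neighbours' reads.

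Likeness of pattern was described by Pearson's r of log2(RPM + 1) over the 8 libraries, leaving out features within 10 kb, and carries no test. The 3 features most like CHS1 were SCW11 (0.955), YBL062W (0.949) and YPL056C (0.933). Those most like SCW10 were YLR415C (0.988), YLR416C (0.972) and KRE2 (0.971), a mannosyltransferase gene. Those most like CRH1 were ROD1 (0.978), PLC1 (0.974) and YMR075C-A (0.951). FKS1 was most like CHS7 (0.952), whose feature held up to 150 RPM but at most 37.3 RPM after separation from its neighbours. CHS3 was most like YOR300W (0.98), EXG1 most like HSL1 (0.943) and GAS1 most like HUF1 (0.931). BGL2 was most like ORC5 (0.973), SCW4 most like SEN1 (0.975) and GSC2 most like FBP26 (0.948). With 8 points of 1 library each and 6504 features tested, such values describe these libraries.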

How the data were processed

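RNA was extracted with hot phenol and made into libraries with the TruSeq Stranded mRNA kit, per the labels' protocols, and read as pairs of 75 bp on a MiSeq, per the series description. BWA and the sacCer3 genome are named in the submitters' processing notes, without versions. Log2 RPKM is the unit named in the header of the deposited table, but the numbers are not on a log scale and do not scale with length: in each library, multiplying a value by its number of windows gives whole reads of equal size, with deviations of at most 0.00599 read. The deposited values are read here as RPM averaged by the authors over the windows touching a feature. Window numbers predicted from all gene bodies and 1000-bp flanks matched 6326 of 6547 features (96.6%). Whether the windows were counted by strand is not given in the sources used here.

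Strain and time were additive terms of a model of log2(RPM + 1) fitted with limma 3.58.1 (R 4.3.3, mean-dependent prior, 3 residual and 3.82 prior degrees of freedom) over the 6504 features with at least 1 RPM in 2 or more libraries (43 removed). P-values were two-sided, adjusted by Benjamini-Hochberg over all 6504 and called under 0.05. Differences between 2 libraries have nominal 95% intervals for counting error, with the mean reads per window taken as the count. A value averages several windows, so more reads lie behind it and these intervals tend to be wider than counting error requires. Separated levels came from a non-negative least-squares fit per chromosome, with each feature's reads spread over its body and 100 bp on either side. The limma fit was tested on simulated data, and the separation was not. Sequences come from RefSeq R64, matched by name; the table's coordinates, whose build its header does not name, differ from R64 by up to 6 bp for these genes, and the window of 300 bases replaces a promoter table that was not used here. Of the planned motifs, 1 is not reported here. The script versions were Python 3.11.15, numpy 2.4.6, scipy 1.17.1 and pandas 2.3.3.

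All 10 genes are named. Other wall genes are named where called, and CTS1, SCW11, DSE4, DSE2, CHS7 and FKS3 are named for their differences at R60 without a call. Likeness names the top 3 features for CHS1, SCW10 and CRH1, and the top feature for each of the others. The genes, the list of 55 and the tests were chosen with earlier results of these data known.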

Additional observations from a re-analysis of the deposited data

Results flagged for a closer look

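Over 40 comparisons of a gene between 2 times, the single libraries of WT and mec1 differed in sign in 9, and in 3 of these both differences lay beyond their counting intervals. The same counts were not made over all features, so whether 9 or 3 of 40 is unusual cannot be said. For CRH1 from HU to R30, the change was -0.98 in WT and 0.43 in mec1, and the mec1 change minus the WT change was 1.42 on the log2 scale. For FKS1 from G1 to R60, it was 0.31 in WT and -0.55 in mec1, a difference of -0.86. For GAS1 from G1 to R60, it was 0.71 in WT and -0.56 in mec1, a difference of -1.28. None of these differences was tested, since each strain and time had 1 library.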

How the results depend on the processing

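No paired analysis was possible because each strain and time has 1 library and no replicate numbers; the strain and time terms of the model already compare times within strains and strains within times. Of the changes of the 10 genes with an unadjusted p under 0.05 (21 changes, 374 values under the alternatives), 352 kept their direction and their side of the threshold, 14 lost and 8 gained a call, and 0 changed sign; over all 60 changes, 41 of 1060 values changed sign, all in changes of at most 0.275 in size. From G1 to HU, 2 genes were called, against 1 without the mean-dependent prior, 1 with neighbours separated and 1 without a strain term (SCW10 in each), and 0 to 3 with 1 library left out: 0 without WT G1, WT HU, mec1 G1 or mec1 HU. Over all features, 591 were called there, against 234 with neighbours separated, 227 from only the 4 libraries, 171 without a strain term, and 45 (without WT HU) to 447 with 1 library left out. SCW10 ranged from -1.57 to -1.45 and CHS3 from -0.90 to -0.60 over the alternatives. With only the 4 libraries of G1 and HU, the 2 genes called were SCW10 and CHS1, and CHS3 was not called. The same 2 were called without WT R30 and without mec1 R30. From HU to R60, 2 genes were called (main count 0) when only the 4 libraries of these times were fitted. In mec1 minus WT, 0 to 1 were called with 1 library left out, FKS1 without WT G1 or mec1 G1, where 672 and 666 of all features were called against 18. Over the alternatives the count over all features ran from 1 to 70 for R30 minus HU (56), from 0 to 23 for R60 minus R30 (0), from 2 to 194 for R60 minus HU (62), from 22 to 154 for R60 minus G1 (103) and from 7 to 672 for mec1 minus WT (18), with the value as reported in brackets. Depth was lowest in WT HU, where a feature had a median of 94.2 reads per window.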
